A study of Mus musculus with 19 samples.

Results

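Cultured T helper 2 (Th2) cells that lost Bcl11b late, after they had been primed, were compared with cells that lost it early, from the naive state onward. The comparison rested on 4 of the 19 samples of the series: 2 late Bcl11b KO and 2 early Bcl11b KO RNA libraries, taken by their labels with no reference to any measured value. Naive CD4 T cells of Bcl11b fl/fl CreERT2 mice, whose floxed Bcl11b gene is cut by a Cre recombinase that 4-hydroxytamoxifen (4-OHT) switches on, were the source of both groups. Early cells grew for 4 days under Th2 conditions with 4-OHT. Late cells grew for 4 days under Th2 conditions without the drug, rested for 1 day in medium with IL-2, and grew for 4 more days under Th2 conditions with 4-OHT. The 4 days of 4-OHT were thus common to both groups, and the extent of the deletion in each was not measured. Total culture time (4 against 9 days, of which 1 was rest), the number of rounds of Th2 culture and the state of the cells when the drug was added all differed between the groups, and these cannot be told apart. The labels do not say whether the 2 replicates of a group came from separate mice or cultures, and p-values thus reflect only how far these libraries differ, which may be technical. WT cultures of the same mice, grown without 4-OHT, and late and early Gata3 WT cultures of the other experiment (2 libraries each) served as references. For the Gata3 cultures, the sources used here do not give the genotype, the drug or the culture times.

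Th2 cells make IL-4, IL-5 and IL-13 and drive immunity to helminths and allergic inflammation. GATA3 is the transcription factor that commits a CD4 T cell to this fate and opens the cytokine locus that holds Il4, Il5 and Il13. Bcl11b is a zinc finger transcription factor needed to commit precursors to the T lineage in the thymus, and it keeps restraining other programmes in mature T cells. Priming a naive cell lowers lymph node homing and quiescence genes and raises effector cytokines and their receptors, and repeated stimulation raises inhibitory receptors.

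The 4 libraries held 9864360 and 9148566 gene reads (early) and 14577958 and 9577013 gene reads (late). Levels are given as CPM, the read count normalised to library depth after TMM scaling (a correction for composition), always as replicate 1 and then replicate 2. Differences are late minus early on the log2 scale with their standard error, so a positive value means higher in the late cultures. A gene was called where edgeR's quasi-likelihood F test gave a Benjamini-Hochberg adjusted p under 0.05 over all genes tested, and a gene was tested where it had at least 1 RPKM in at least 2 of the 4 libraries. Over all genes, the log2 values of the 2 late libraries correlated at r = 0.9871 and those of the 2 early libraries at r = 0.9315, as a description of the spread. Bcl11b mRNA itself stood at 67.1 and 54.5 CPM in the early and 74 and 137 CPM in the late KO libraries (log2 difference 0.79 ± 0.31, adjusted p = 0.073). In the WT libraries of the same experiment it stood at 128 and 130.0 CPM (early) and 141 and 182 CPM (late). Reads still covered the transcript in all 4 KO libraries, and the sources used here do not name the deleted exon, so these values measure the transcript and not the extent of the deletion. Cd4 and the CD3 genes were present in all 4 libraries, and Cd8a was low, as described below. The early WT libraries stood apart from the rest: they held 3.79 and 4.89 reads per kb of olfactory and other sensory receptor transcripts, against 0.292 to 0.510 in the 4 KO libraries.

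In all late Bcl11b libraries, KO and WT, some genes that have near-identical copies or pseudogenes had almost no reads. Genes whose mean RPKM over the 4 late Bcl11b libraries was at most 5% of the lower of 2 references, the 4 early Bcl11b and the 4 Gata3 WT libraries, were therefore left out before the test. This removed 721 of 22878 symbols, of which 108 had at least 1 RPKM in the lower reference. Rpsa (4.46%) and Sumo2 (4.79%) lay just inside that limit, and Dynlt1a (5.02%) and Brp44l (5.15%) just outside it. Partial losses of the same kind remain among the tested genes: of the 2168 genes called lower, 153 were at 25% or less of the lower reference in the late Bcl11b libraries as a whole. A pseudogene with the parent's name and the ending "-ps" exists for 6.41% of the genes called lower, 1.29% of those called higher and 24.1% of the 108 left out. How much of each fall in such genes came from the assignment of reads was not tested.

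Late and early Bcl11b-deleted cultures differed across a large share of the transcriptome. Of 10158 genes tested, 4027 (39.6%) were called, 1859 (18.3%) higher and 2168 (21.3%) lower in the late cultures. A difference of at least 2-fold was called for 1185 genes (11.7%) in the higher and 1667 genes (16.4%) in the lower direction. The median difference over all genes tested was -0.02, and 43 genes had no read in one of the groups. Both late libraries lay above both early ones for 3733 genes (36.7%) and below them for 3713 (36.6%), called or not. These shares and the median are the background for the counts of each gene group below. The count was lower without either late library and higher without either early one. Such a fit leaves 1 library in a group, so the spread is estimated from the other pair alone. The log2 values of the 2 early libraries differed by a median of 0.361, against 0.187 for the 2 late ones. These counts, and those of gene groups below with a library left out, thus cannot show how far a result rests on 1 library. On the log2(RPKM + 1) scale with limma, 3895 genes were called, the median of all genes was 0.14 and the split moved to 2187 higher and 1708 lower.

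**Figure D1:**
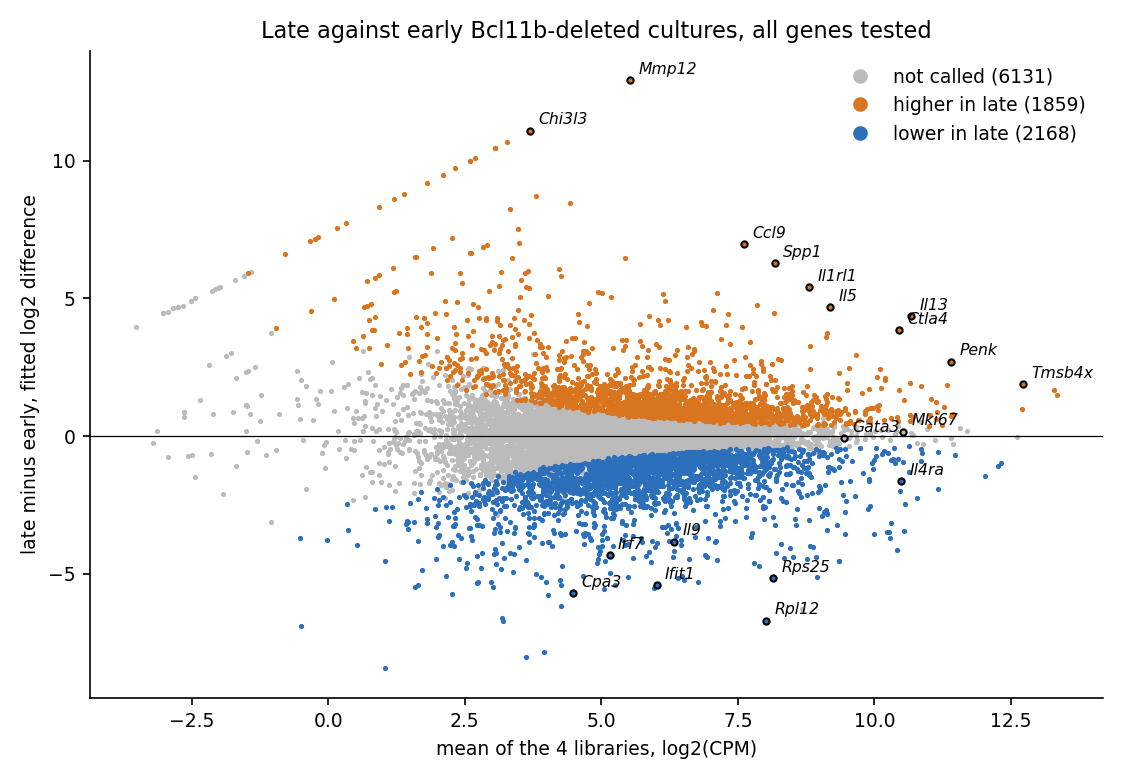
Fitted log2 difference, late minus early, against the mean log2 CPM of the 4 libraries for 10158 genes. Orange points are the 1859 genes called higher in late cultures, blue points the 2168 called lower, grey points were not called, and named genes are circled.

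No difference of this kind was called between the late and early Gata3 WT cultures. None of 10777 genes (0.00%) passed edgeR's test there, 47 had an unadjusted p under 0.05, DESeq2 called 1 gene, and limma called 4 on the log2(RPKM + 0.1) scale. The median size of the difference per gene was 0.705 in the Bcl11b-deleted and 0.089 in the Gata3 WT cultures. Genes called higher in late Bcl11b KO cells had a median of 1.21 there and 0.01 between the Gata3 WT stages, and genes called lower had medians of -1.50 and -0.02. The difference between the 2 stage changes was itself tested in a fit of the 8 libraries, and 3344 of 10777 genes (31.0%) passed, 1532 (14.2%) in the higher and 1812 (16.8%) in the lower direction. This count ran from 1976 to 5081 when 1 library was left out. Of the genes called in the Bcl11b-deleted comparison, 1423 of 1859 (76.6%) higher and 1725 of 2168 (79.6%) lower genes passed this test in the same direction; the 2 tests share the 4 KO libraries. The sources used here do not say whether the Gata3 WT stages were harvested after different culture times, and they belong to another experiment, so genotype, culture and experiment cannot be told apart.

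**Figure D2:**
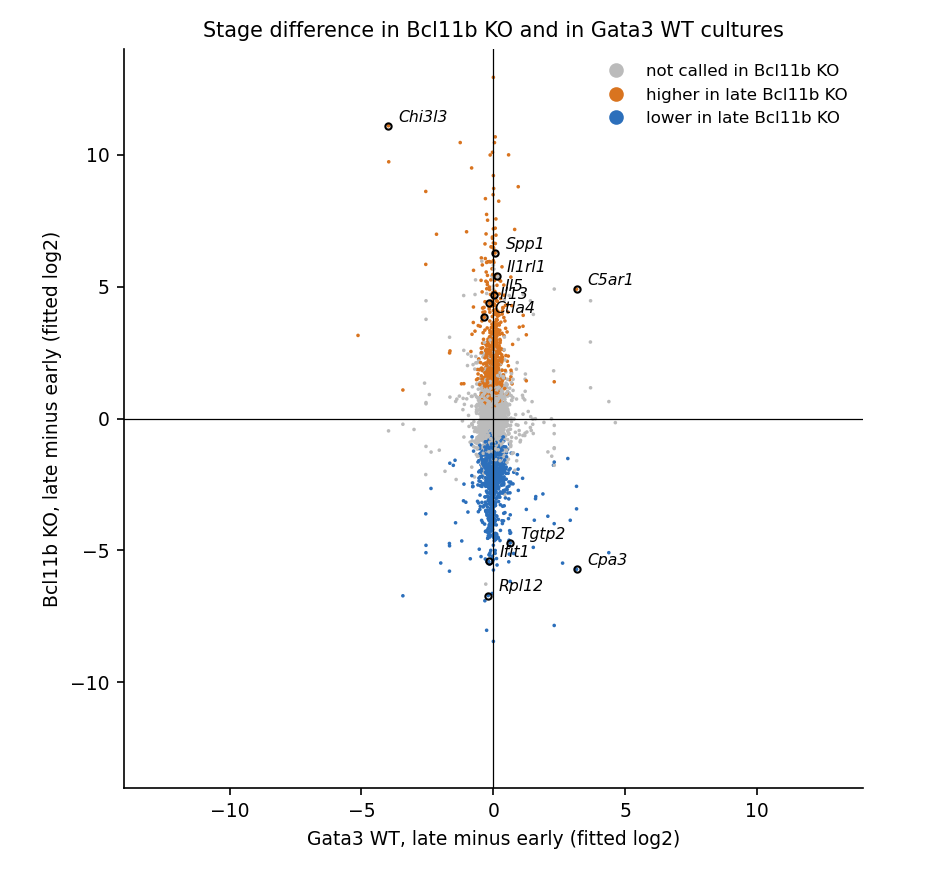
Fitted log2 difference, late minus early, in Bcl11b KO cultures (vertical axis) against Gata3 WT cultures (horizontal axis), 1 point per gene. Points spread along the vertical axis, with a median size of 0.705, and little along the horizontal axis, with a median size of 0.089; isolated points far along the horizontal axis, such as Chi3l3 and Cpa3, have very few reads in the Gata3 WT libraries.

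Th2 cytokines were much higher in the late cultures. Il13, which encodes the cytokine behind mucus secretion and alternative macrophage activation, stood at 184 and 119 CPM early and 3142 and 3104 CPM late (log2 difference 4.37 ± 0.22, adjusted p = 8.8e-06), 20.6-fold higher. Il5, the eosinophil growth and survival factor, stood at 29.7 and 57.4 CPM early and 1253 and 983 CPM late (log2 difference 4.68 ± 0.32, adjusted p = 3.8e-05). Both genes were low in both early libraries and far higher in both late ones, with no overlap. Il4, which instructs Th2 fate and antibody switching, moved less, from 32.3 and 47.4 to 138 and 110.4 CPM (log2 difference 1.64 ± 0.26, adjusted p = 0.0021). Il10, which restrains inflammation, rose from 337 and 349 to 1958 and 1765 CPM (log2 difference 2.44 ± 0.13, adjusted p = 1.2e-05). Il24 rose by 0.48 ± 0.15 (adjusted p = 0.036). Il9, a mast cell growth factor, went the other way: 137 and 163 CPM early and 13 and 7.77 CPM late (log2 difference -3.84 ± 0.30, adjusted p = 8.2e-05). Il3 (0.89 ± 0.65, adjusted p = 0.3) and Csf2 (-0.73 ± 0.79, adjusted p = 0.5), growth factors of myeloid cells, did not pass the test. In bulk RNA, more cells that express a cytokine and more RNA per cell cannot be told apart.

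Receptors and secreted products of Th2 cells shifted with them. Il1rl1, the receptor for the alarmin IL-33, stood at 15.2 and 25.5 CPM early and 805 and 934 CPM late (log2 difference 5.42 ± 0.27, adjusted p = 8.8e-06), the largest rise among the 14 tested Th2 cytokine and receptor genes. Penk, which encodes the opioid peptide precursor proenkephalin, rose from 656 and 789.9 to 5209 and 4218 CPM (log2 difference 2.70 ± 0.15, adjusted p = 1.7e-05). Areg, the epidermal growth factor family member amphiregulin, rose from 10.2 and 17.4 to 65.1 and 49.8 CPM (log2 difference 2.06 ± 0.35, adjusted p = 0.0028), a call that ended without late replicate 1 (adjusted p = 0.054). Il4ra, the receptor chain through which IL-4 and IL-13 signal, fell from 2069.8 and 2292 to 634 and 773 CPM (log2 difference -1.63 ± 0.14, adjusted p = 0.00011). Crlf2, the receptor for the alarmin TSLP, fell by 0.88 (adjusted p = 0.045). In all, 8 of the 14 tested genes were called higher and 3 lower, with a median of 1.27 against 0.02 in the Gata3 WT cultures. The stage change was also tested against the Bcl11b WT cultures, with limits given below. The difference, KO minus WT, was called higher for 0 and lower for 6 of the 14. Over all genes these shares were 2.00% and 1.34%. The plot of CPM by library shows the separation of the 2 stages for these genes.

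**Figure D3:**
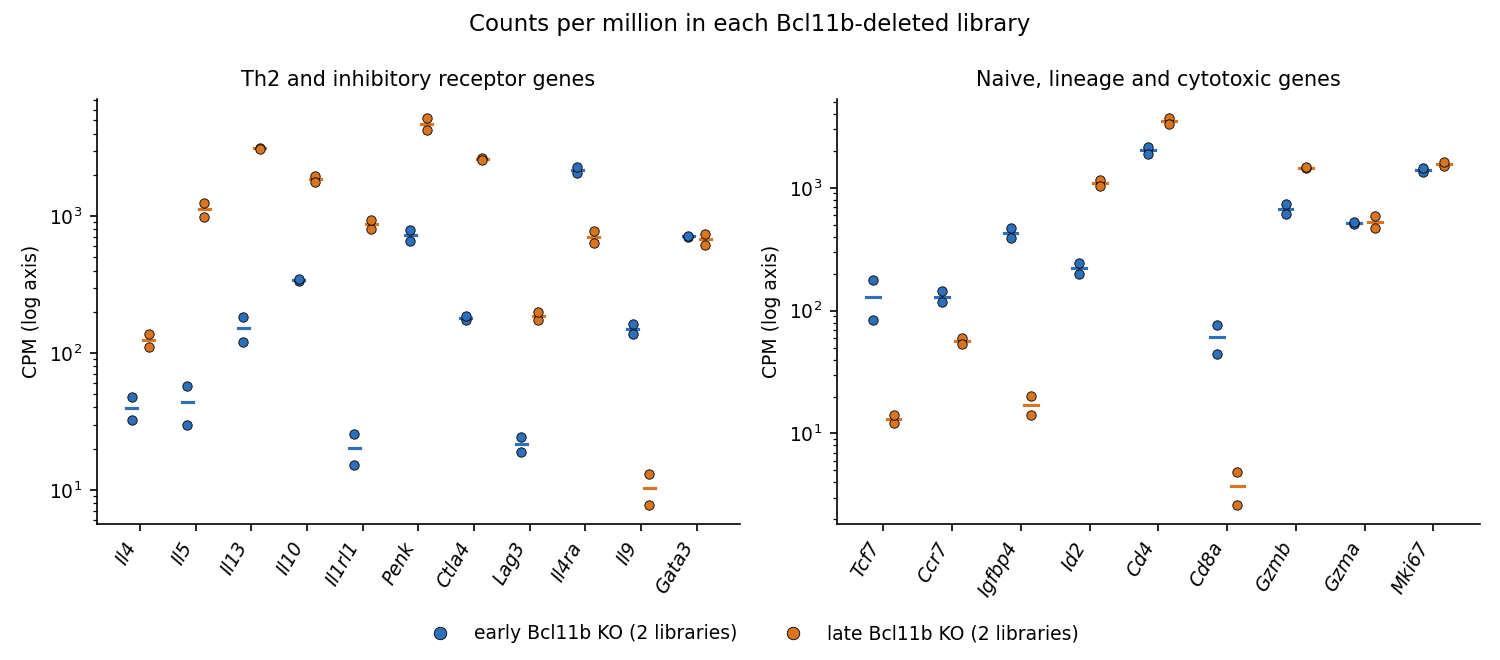
CPM on a log axis in each early (blue) and late (orange) Bcl11b KO library; points are libraries and bars the mean of 2. Il4, Il5, Il13, Il10, Il1rl1, Penk, Ctla4, Lag3, Id2, Cd4 and Gzmb lie higher and Il4ra, Il9, Tcf7, Ccr7, Igfbp4 and Cd8a lower in both late libraries, while Gata3, Gzma and Mki67 overlap or lie close together.

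The levels in undeleted cells stand beside these as a description, scaled in a fit of the 8 libraries of each experiment. Late Bcl11b WT libraries held 1601 and 2209.9 CPM of Il13, 372 and 324 CPM of Il5 and 1427 and 1409.7 CPM of Il1rl1. Late Gata3 WT libraries held 175 and 200.3, 423 and 282 and 963 and 1053 CPM of the same genes, and early Gata3 WT libraries 210.0 and 206, 385 and 304 and 869 and 985 CPM. Il5 and Il1rl1 were thus higher at both stages of the Gata3 WT cultures than in the early Bcl11b KO cultures, whereas Il13 was at a like level in early cells of both. The stage change of Il13 was 4.51 ± 0.27 larger in Bcl11b KO than in Gata3 WT cultures (adjusted p = 7.9e-06), and that of Il1rl1 was 5.29 ± 0.30 larger (adjusted p = 6.3e-06). Against the WT cultures of the same experiment, the stage change of Il13 was smaller in the KO (-3.74 ± 0.35, adjusted p = 0.0017). Il13 was near 0 in the early Bcl11b WT libraries, which stood apart, and rose in those WT cultures too, with values given below.

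The 250 bases before the start sites of Il13 and of Il4ra are shown because they are Th2 genes, one rising and one falling, whose windows are overlapped by both a Bcl11b and a GATA3 peak (RefSeq sequence, GRCm38.p6, written 5′ to 3′ on the gene's strand). Capitals mark GATAA, the core of the GATA motif, searched on both strands (TTATC on the other). The Il13 window, at chr11:53634703-53634952 on the minus strand, holds 1 match and lies inside a GATA3 peak at chr11:53633654-53635169 (123 reads, 8.85-fold enrichment) and is overlapped by a Bcl11b peak at chr11:53634430-53635240 (33 reads, 2.82-fold). The Il4ra window, at chr7:125552021-125552270 on the plus strand, holds no match and is overlapped by a Bcl11b peak at chr7:125550990-125553181 (102 reads, 3.89-fold) and by a GATA3 peak at chr7:125551687-125552433 (18 reads, 1.07-fold). The Ctla4 window, at chr1:60908775-60909024 on the plus strand, is shown for the inhibitory receptor described below; it holds no match and is overlapped by a Bcl11b peak at chr1:60908503-60910113 (63 reads, 2.05-fold) and by a GATA3 peak at chr1:60908624-60909550 (31 reads, 1.42-fold).
Il13: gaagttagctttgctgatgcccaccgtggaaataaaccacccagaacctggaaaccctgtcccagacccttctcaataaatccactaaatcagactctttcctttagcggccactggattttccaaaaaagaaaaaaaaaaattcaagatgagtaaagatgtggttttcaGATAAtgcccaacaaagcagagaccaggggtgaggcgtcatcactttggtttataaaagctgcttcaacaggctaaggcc
Il4ra: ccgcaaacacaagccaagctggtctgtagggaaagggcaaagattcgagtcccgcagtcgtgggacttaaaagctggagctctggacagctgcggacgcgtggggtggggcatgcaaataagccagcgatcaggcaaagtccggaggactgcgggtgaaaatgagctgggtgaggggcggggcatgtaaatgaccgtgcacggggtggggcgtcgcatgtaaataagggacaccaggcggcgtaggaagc
Ctla4: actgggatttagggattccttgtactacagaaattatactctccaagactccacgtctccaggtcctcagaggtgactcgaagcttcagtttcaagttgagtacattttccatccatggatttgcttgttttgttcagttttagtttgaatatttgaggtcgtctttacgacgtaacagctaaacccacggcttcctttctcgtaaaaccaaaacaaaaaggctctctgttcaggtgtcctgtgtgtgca

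GATAA was found in 15.1% of the promoter windows of genes called higher (203 of 1345 with a window), 16.1% of those called lower (251 of 1560), 14.6% of all tested genes (1056 of 7256) and 23.0% of 27025 windows in the table. The peak heights and folds are the authors' own. The ChIP libraries (1 each for Bcl11b, GATA3 and input) came from late WT cells, so they describe undeleted cells and hold no value for the KO cultures. Among genes called higher, 37.1% (690 of 1859) had a Bcl11b peak within 1 kb of their start, against 31.0% (672 of 2168) of genes called lower and 32.1% (3264) of all tested genes. For GATA3 the shares were 22.1% (411), 16.4% (356) and 17.0% (1724).

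Gata3 itself did not pass the test: it stood at 708 and 720.3 CPM early and 617 and 735 CPM late (log2 difference -0.08 ± 0.14, adjusted p = 0.68). Among 18 tested Th2 transcription factor genes, 5 were called higher and 2 lower, with a median of 0.01 (11 called in all without early replicate 1). Maf, an activator of Il4 and Il10, rose from 80.4 and 80.5 to 533 and 554 CPM (log2 difference 2.76 ± 0.15, adjusted p = 1.3e-05). Pparg, a lipid sensing nuclear receptor of tissue Th2 cells, rose by 1.73 ± 0.26, Bhlhe40, a repressor that supports cytokine output, by 1.52 ± 0.13, Batf, an AP-1 partner of IRF4, by 0.72 ± 0.18 and Ets1 by 0.74 ± 0.16. Tcf7, which encodes TCF-1 of naive and memory T cells, stood at 176 and 84 CPM early and 12.1 and 14.2 CPM late (log2 difference -3.31 ± 0.38, adjusted p = 0.00046), and Nfil3 fell by 0.84. Stat6, which carries the IL-4 signal, had a difference of -0.39 ± 0.19 (adjusted p = 0.14), and Irf4 one of -0.05 ± 0.12 (adjusted p = 0.76).

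Inhibitory receptors were higher in the late cultures. Ctla4, which competes with CD28 for its ligands, stood at 174 and 187 CPM early and 2649 and 2589 CPM late (log2 difference 3.86 ± 0.13, adjusted p = 4.1e-06), 14.5-fold higher. Lag3, an inhibitory receptor that binds MHC class II, rose from 19 and 24.4 to 174 and 198 CPM (log2 difference 3.10 ± 0.23, adjusted p = 5.2e-05). Pdcd1 (PD-1) rose from 5.57 and 12.9 to 47.8 and 51.2 CPM, Tigit from 58.5 and 17.5 to 213 and 184 CPM and Havcr2 (TIM-3) from 63.2 and 45.2 to 282 and 238 CPM. Il2ra, the high affinity chain of the IL-2 receptor, rose from 5309 and 5524 to 16258 and 14503 CPM (log2 difference 1.51 ± 0.10, adjusted p = 4.2e-05). Foxp3, the factor that defines regulatory T cells, did not pass the test (-1.17 ± 0.41, adjusted p = 0.054). Of 15 tested regulatory and inhibitory receptor genes, 8 were called higher and 2 lower (Lrrc32 and Tnfrsf4), with a median of 1.23. The stage change of Ctla4 was 4.23 ± 0.19 larger than in Gata3 WT cultures (adjusted p = 3.5e-06), where it stood at 1504 and 1421 CPM early and 1007 and 1255 CPM late.

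Genes of naive and memory T cells were lower in the late cultures. Igfbp4 stood at 388 and 469 CPM early and 20.2 and 14.1 CPM late (log2 difference -4.63 ± 0.23, adjusted p = 1.0e-05), and Foxp1, a quiescence factor, at 174 and 183 and 42.5 and 43.5 CPM (log2 difference -2.05 ± 0.19, adjusted p = 0.00016). Klf2, the factor that maintains S1pr1, was low throughout, at 9.36 and 26 CPM early and 2.31 and 0.841 CPM late (log2 difference -3.44 ± 0.74, adjusted p = 0.0078). Ccr7, the receptor for lymph node chemokines, fell from 117 and 143 to 59.7 and 53.5 CPM (log2 difference -1.20 ± 0.21, adjusted p = 0.0032); the call ended without late replicate 2 (adjusted p = 0.060). Cd28, the main costimulatory receptor, rose from 502 and 403 to 2065 and 1690.4 CPM (log2 difference 2.05 ± 0.16, adjusted p = 8.1e-05), and S1pr1 and Cxcr4 were also called higher. Of 22 tested genes, 13 were called lower and 3 higher, with a median of -0.77. Dapl1, another gene of naive cells, had 5.89 and 2.33 CPM early and no read in either late library.

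Cd4 was higher and the CD8 chains were lower in the late cultures, and of 10 tested CD4 and CD8 lineage genes 3 were called higher and 6 lower, with a median of -0.60. Cd4 stood at 2158 and 1887 CPM early and 3699.8 and 3289 CPM late (log2 difference 0.79 ± 0.12, adjusted p = 0.0019). Cd8a stood at 76.4 and 44.5 CPM early and 4.90 and 2.63 CPM late (log2 difference -3.98 ± 0.45, adjusted p = 0.00043), and Cd8b1 fell by 1.45 (adjusted p = 0.018). Zbtb7b, which encodes the CD4 lineage factor ThPOK, did not pass the test (-0.13 ± 0.24, adjusted p = 0.71), while Cbfb, the partner of the RUNX factors, rose by 1.67 ± 0.16 and Tox, a factor of CD4 lineage development, fell by 3.85. Id2, an inhibitor of E proteins, rose from 200.3 and 243 to 1146 and 1027 CPM (log2 difference 2.29 ± 0.15, adjusted p = 3.7e-05). Gzmb (granzyme B) rose from 734 and 615 to 1444 and 1463 CPM (log2 difference 1.11 ± 0.13, adjusted p = 0.00059), whereas Gzma overlapped between the stages at 507 and 529 and 471 and 588 CPM (log2 difference 0.03 ± 0.15, adjusted p = 0.88). Gzmc fell by 2.54 and Fcer1g, a signalling chain of Fc and innate receptors, by 3.04. Of 17 tested granzyme, perforin and NK receptor genes, 3 were called higher and 5 lower (3 without late replicate 1 and 5 without late replicate 2 called in all).

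Genes of other helper subsets did not move one way. Tbx21 and Ifng, the defining Th1 genes, were under the RPKM minimum and were not tested. Among the 11 tested Th1 genes, Il12rb2, the signalling chain of the IL-12 receptor, fell from 319 and 207 to 74.1 and 55.8 CPM (log2 difference -2.01 ± 0.25, adjusted p = 0.0007) and Stat4 fell by 1.82. Il21, made by follicular and Th17 cells, rose from 5.26 and 10.4 to 56 and 38.3 CPM (log2 difference 2.59 ± 0.43, adjusted p = 0.0024). Il17a was at the edge of detection, with 2 reads in the early and 76 in the late libraries, a ratio of 29.6 (95% exact counting interval 7.91 to 248). Tox2 rose from 0.105 and 0.998 to 19.9 and 28.1 CPM, and Icos, the costimulator of follicular cells, fell from 1449 and 1340.4 to 668 and 554 CPM. In all, 8 of 11 Th1 genes were called (3 higher, 5 lower), 6 of 8 Th17 genes (4 higher, 2 lower) and 8 of 11 follicular helper genes (3 higher, 5 lower). Fewer of each were called without either late library, where the spread came from the early pair alone.

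Chemokine genes showed some of the largest rises. Ccl9 stood at 2.21 and 3.88 CPM early and 479 and 293 CPM late (log2 difference 6.99 ± 0.37, adjusted p = 1.2e-05). Ccl3 and Ccl4, made by activated T cells and macrophages, stood at 5.99 and 30.2 and 1.89 and 2.33 CPM early and at 328 and 261 and 74.3 and 66.3 CPM late. Ccl17, a ligand of CCR4, rose from 9.78 and 4.33 to 88 and 72.1 CPM (log2 difference 3.50 ± 0.41, adjusted p = 0.0005). Ppbp and Ccl24 had no read in either early library and 17 and 16.3 and 10.4 and 6.62 CPM late, so they were at least 103-fold and at least 55.0-fold higher (bounds at 3 reads over the early group). Ccl5 fell from 235 and 184 to 75.3 and 46.2 CPM (log2 difference -1.78 ± 0.26, adjusted p = 0.0015). Of 13 tested ligands, 10 were called higher and 1 lower, with a median of 4.46, or 4.03 with the 3 genes at 0 set to their bound; 6 were called in all without late replicate 1, and 6 without late replicate 2.

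Chemokine receptor genes rose more often than they fell. Ccr8 and Ccr4, receptors of Th2 and regulatory T cells, were called higher, Ccr8 from 29.8 and 12 to 164 and 209.8 CPM (log2 difference 3.16 ± 0.40, adjusted p = 0.00072) and Ccr4 by 0.99 ± 0.19. Ccr1 rose from 10.2 and 5.21 to 133 and 122 CPM (log2 difference 4.04 ± 0.35, adjusted p = 0.00011), Ccr2 from 6.73 and 7.77 to 64.2 and 70.1 CPM and Cxcr6 from 54 and 97.5 to 573 and 475 CPM. Ccrl2, an atypical receptor that does not signal, fell from 15.5 and 24.5 to 3.64 and 4.20 CPM. All 14 tested receptors were called, 10 higher and 4 lower (6 without late replicate 1 and 6 without late replicate 2).

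Several of the largest rises were genes best known from macrophages and other myeloid cells. Mmp12, macrophage elastase, had no read early and 119 and 65.3 CPM late, at least 604-fold higher. Chi3l3 (Ym1), a marker of alternatively activated macrophages, had no read early and 31.7 and 19.96 CPM late, at least 167-fold higher. Spp1, the matrix protein osteopontin made by macrophages and activated T cells, rose from 3.58 and 11.2 to 639 and 502 CPM (log2 difference 6.28 ± 0.45, adjusted p = 4.9e-05). Il1b rose from 0 and 0.444 to 27.1 and 13.9 CPM (log2 difference 6.48 ± 0.96, adjusted p = 0.0015), Il1rn, its receptor antagonist, from no read to 13.7 and 6.30 CPM, and Csf2rb, the common chain of the IL-3, IL-5 and GM-CSF receptors, from 5.05 and 2.44 to 137 and 134 CPM (log2 difference 5.17 ± 0.36, adjusted p = 4.3e-05). Mmp13 had 3 early and 572 late reads, a ratio of 148 (95% exact counting interval 50.5 to 721). Intervals and bounds on reads cover counting error only.

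Macrophage and dendritic cell markers moved with these genes in part. Their summed level was 11.4 and 6.92 RPKM in the early and 16.7 and 15.8 RPKM in the late libraries, and 5 of the listed genes were tested, of which 1 (Lyz2) was called higher (none without late replicate 1 or without late replicate 2, 2 without early replicate 1 and 3 without early replicate 2). Lyz2, lysozyme of myeloid cells, was at 0 and 0.044 RPKM early and 2.15 and 1.14 RPKM late. Csf1r, the macrophage growth factor receptor, was at 0 early and 0.193 and 0.161 RPKM late, and Fcgr1, Siglech and Lyz1 were at 0 in all 4 libraries. The part of these cells in the rises was not tested. In late Bcl11b WT libraries Mmp12 stood at 23.8 and 15.6 CPM, Chi3l3 at 7.83 and 7.06 CPM, Spp1 at 86.2 and 71.4 CPM and Ccl9 at 14.2 and 10.5 CPM. In the Gata3 WT libraries Mmp12 had no read and Spp1 stood at 163 and 159 CPM early and 184 and 152 CPM late.

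Other large rises were in genes of mixed roles. Pdpn (podoplanin, at least 125-fold) and Gpr15 (a gut homing receptor of T cells, at least 107-fold) had no read in either early library and 23.9 and 14.7 and 20.1 and 13.1 CPM in the late ones. H2-DMa, which loads peptides onto MHC class II, rose from 1.79 and 0.111 to 78.5 and 92.8 CPM (log2 difference 6.45 ± 0.67, adjusted p = 0.00029). Aldh3b2 (1 early and 663 late reads, ratio 516, interval 92.3 to 2.04e+04), Grp (2 and 358 reads, ratio 139, interval 38.3 to 1154) and Tmem138 (2 and 279 reads, ratio 108, interval 29.8 to 901) rose from near 0. Pdpn, Gpr15, H2-DMa and Tmem138 were present in the early Gata3 WT libraries, at 72 and 85.6, 48.2 and 48.5, 64.9 and 63.2 and 23.8 and 17 CPM. In those cells these genes were thus detected at the early stage, while in the early Bcl11b KO cultures they were at or near 0.

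Type I interferon response genes were lower in the late cultures. Type I interferon switches these genes on, and many of them encode antiviral proteins. Ifit1, which binds foreign RNA, stood at 134 and 119 CPM early and 3.57 and 2.21 CPM late (log2 difference -5.42 ± 0.32, adjusted p = 2.1e-05), 42.7-fold lower. Irf7, which amplifies the interferon response, stood at 81.1 and 54.4 CPM early and 3.08 and 3.68 CPM late (log2 difference -4.33 ± 0.36, adjusted p = 9.8e-05). Usp18, which removes ISG15 and damps the receptor, stood at 27.7 and 26.8 CPM early and 1.19 and 0.420 CPM late (log2 difference -5.00 ± 0.58, adjusted p = 0.0005), and Rtp4 at 45.5 and 30.1 and 0.420 and 0.630 CPM (log2 difference -6.17 ± 0.52, adjusted p = 0.0001). Ifit3 had 26.6 and 22.4 CPM early and 0.140 and 0 CPM late, and Ifi44 had 40.2 and 21.6 CPM early and 0.210 and 0 CPM late. Bst2 (tetherin) fell from 111 and 76.5 to 27.4 and 22.6 CPM (log2 difference -1.91 ± 0.28, adjusted p = 0.0014).

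Of 30 tested interferon response genes, 25 were called lower and none higher, with a median of -1.81 against 0.10 in the Gata3 WT cultures. The number called was 14 without early replicate 1, 16 without early replicate 2, and 18 without late replicate 1 and also 18 without late replicate 2. Isg15 (-0.49 ± 0.50, adjusted p = 0.46), Mx1 (0.52 ± 0.28, adjusted p = 0.18), Ifit2 (-0.62 ± 0.63, adjusted p = 0.46), Zbp1 (-0.74 ± 0.27, adjusted p = 0.057) and Dhx58 (-0.24 ± 0.46, adjusted p = 0.71) did not pass the test. Of the 25, 2 stood at 25% or less and 6 at 50% or less of the lower reference in the late Bcl11b libraries as a whole. Rtp4 stood at 9.96% and Irf7 at 16.9% of that reference. Beside its level in the early Bcl11b KO libraries, Ifit1 was low in the other groups: early Bcl11b WT libraries held 1.28 and 10.4 CPM, late Bcl11b WT 0.776 and 0.291 CPM, early Gata3 WT 3.05 and 0.612 CPM and late Gata3 WT 1.93 and 1.25 CPM. For Irf7 these values were 11.9 and 5.95, 2.47 and 3.93, 13.4 and 10.8 and 23 and 15 CPM. The difference of stage changes, Bcl11b KO minus Bcl11b WT, was called higher for 1 and lower for 6 of the 30 interferon response genes.

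**Figure D4:**
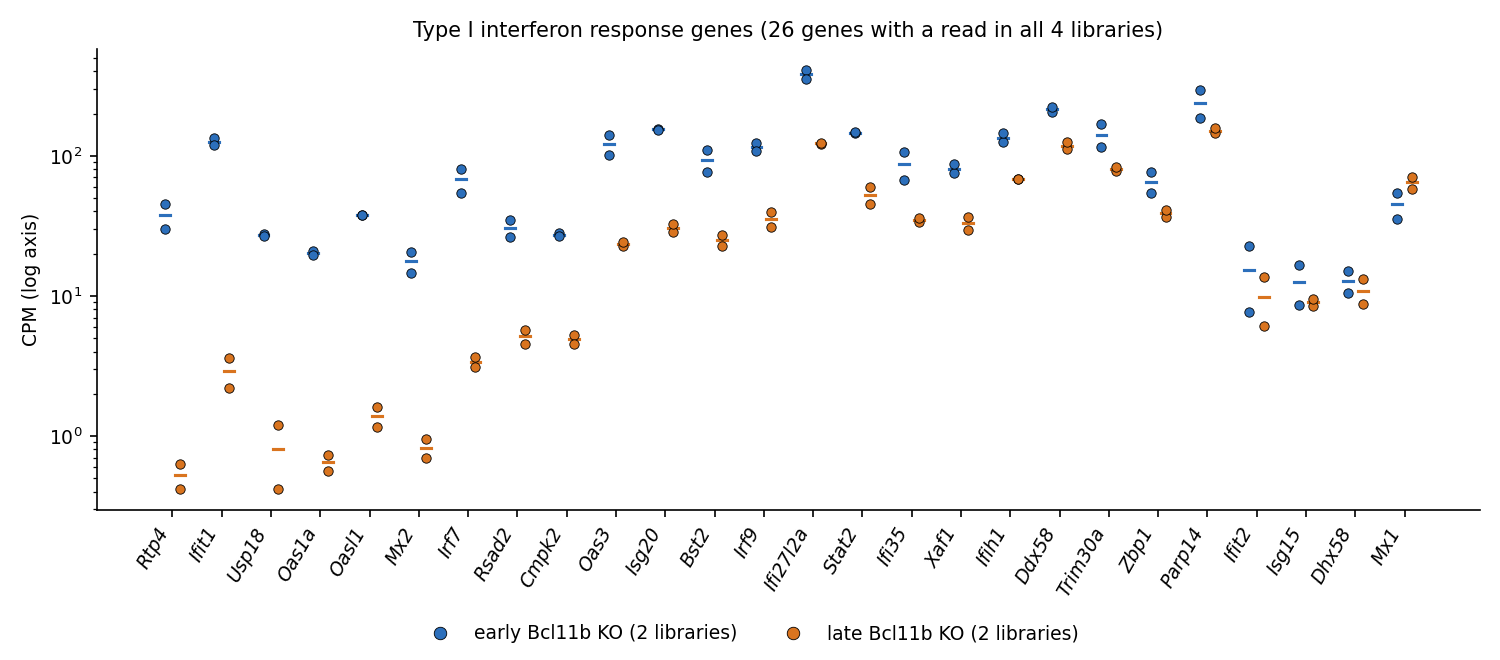
CPM on a log axis of 26 of the 30 tested type I interferon response genes, each with a read in all 4 Bcl11b KO libraries, ordered by their difference; blue is early, orange is late, and bars are means of 2 libraries. The late libraries lie below the early ones for most genes, and the stages lie close together for Isg15, Dhx58 and Mx1 at the right.

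Promoter windows of 3 of these genes are shown for the interferon-stimulated response element, searched on both strands as GAAA, any 2 bases, GAAA (capitals mark matches, which may overlap). Ifit3 (chr19:34583279-34583528, plus strand), Ifit1 (chr19:34640639-34640888, plus strand) and Bst2 (chr8:71537473-71537722, minus strand) hold 2 matches each within 250 bases of the start (RefSeq, GRCm38.p6). The window of Oas1a also held 2 matches, and those of Rsad2, Oas3, Stat2 and Trim30a held 1 each. The remaining windows of interferon response genes called lower held no match, among them Ifi44, Oasl2, Oasl1 and Irf7, which fell by more than Bst2.
Ifit3: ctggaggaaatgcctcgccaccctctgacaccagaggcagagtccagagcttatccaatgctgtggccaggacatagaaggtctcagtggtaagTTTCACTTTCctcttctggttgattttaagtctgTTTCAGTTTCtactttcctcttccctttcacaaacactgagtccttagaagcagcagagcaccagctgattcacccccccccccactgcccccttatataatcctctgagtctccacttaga
Ifit1: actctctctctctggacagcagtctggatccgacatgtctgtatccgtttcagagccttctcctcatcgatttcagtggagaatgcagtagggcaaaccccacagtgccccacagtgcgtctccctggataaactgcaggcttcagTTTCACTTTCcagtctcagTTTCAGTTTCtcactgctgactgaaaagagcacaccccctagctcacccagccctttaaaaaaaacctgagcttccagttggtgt
Bst2: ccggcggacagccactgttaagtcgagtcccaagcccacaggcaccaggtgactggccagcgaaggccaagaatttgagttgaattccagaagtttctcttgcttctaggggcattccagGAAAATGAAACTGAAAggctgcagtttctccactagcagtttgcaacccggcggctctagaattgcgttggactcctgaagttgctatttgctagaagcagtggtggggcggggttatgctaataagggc

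The motif was found in 8 of 19 windows (42.1%) of the interferon response genes called lower, 2.77% of the windows of all tested genes (201 of 7256) and 3.04% of 27025 windows. The share in interferon response genes that were not called was not computed, so the motif cannot be tied to the fall. Interferon-inducible GTPases, which are driven more by type II interferon, were mixed: of 14 tested, 7 were called lower and 1 higher (Ifi47), with a median of -0.55 (4 without late replicate 1 and 5 without late replicate 2 called in all). Tgtp1 and Tgtp2, near-identical neighbours between which reads could be split, fell from 227 and 235 to 11 and 11.7 CPM and from 440.1 and 468 to 16.7 and 17.9 CPM. Both were at 7.02% and 5.69% of the lower reference in the late Bcl11b libraries as a whole, close to the limit for lost near-copy reads.

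Ribosomal protein genes, a list added after the values were seen, fell nearly throughout, and many of them have pseudogenes. Of 86 listed, 25 were left out by the near-copy rule and 57 were tested, of which 53 were called lower and 2 higher (Rps14 and Rps3), with a median of -2.52 against -0.14 in Gata3 WT cultures. The difference of stage changes, Bcl11b KO minus Bcl11b WT, was called higher for 0 and lower for 1 of the 57. Of the 53, 40 stood at 50% or less and 18 at 25% or less of the lower reference in the late Bcl11b libraries as a whole. Rpl12, a part of the large subunit, was the extreme, at 526 and 496 CPM early and 4.90 and 4.83 CPM late (log2 difference -6.71 ± 0.19, adjusted p = 4.1e-06), and stood at 5.76% of that reference. Rpl21 (6.18%), Rps25 (7.47%) and Rpl5 (10.9%) were also near the limit. Lost reads and lower mRNA cannot be told apart for these genes.

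Genes of glycolysis were lower in the late cultures, with the same limit for several. Pgk1 stood at 927 and 1049.6 CPM early and 151 and 129 CPM late (log2 difference -2.82 ± 0.15, adjusted p = 1.3e-05), Eno1 at 1121 and 1324 and 163 and 195 CPM (log2 difference -2.77 ± 0.16, adjusted p = 1.7e-05) and Mif at 420.4 and 376 and 30.1 and 32.8 CPM (log2 difference -3.66 ± 0.17, adjusted p = 8.7e-06). These 3 genes stood at 23.6%, 25.2% and 14.9% of the lower reference in the late Bcl11b libraries as a whole. Hk1 and Hk2, the hexokinases, fell by 1.34 and 0.72, Gpi1 by 2.02 and Slc16a3, the lactate exporter, by 2.24. Ldha, lactate dehydrogenase, did not pass the test (0.08 ± 0.13, adjusted p = 0.65). Slc2a3, the glucose transporter GLUT3, rose from 55.1 and 33.4 to 309 and 295 CPM (log2 difference 2.77 ± 0.25, adjusted p = 0.00015), and Ero1l, a thiol oxidase of the endoplasmic reticulum, by 0.92 ± 0.12. Of 26 tested genes, 15 were called lower and 2 higher, with a median of -1.08. The difference of stage changes, Bcl11b KO minus Bcl11b WT, was called higher for 5 and lower for 0 of the 26. Of the 15, 7 were at 50% or less of the lower reference.

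Genes of the respiratory chain fell in part. Of 23 tested, 10 were called lower and none higher, with a median of -0.44 (6 without late replicate 2), and Cycs (cytochrome c) was the largest, at 53.9 and 64.1 CPM early and 2.66 and 2.63 CPM late, 8.94% of the lower reference. Cox5b fell by 2.53 and Sdhb by 2.13. They stood at 35.94% and 39.32% of the lower reference in the late Bcl11b libraries as a whole. The ATF4 targets of serine and amino acid supply fell more often than they rose: 11 of 23 were called lower and 1 higher (Psph), with a median of -0.69 (6 without late replicate 1 and 6 without late replicate 2 called in all). Among them Phgdh, the first enzyme of serine synthesis, fell by 2.62, Asns, asparagine synthetase, by 1.97 and Ddit3 (CHOP) by 2.28. Phgdh stood at 36.55%, Asns at 65.65% and Ddit3 at 42.39% of that reference. In sterol and fatty acid synthesis, 7 of 26 were called higher and 7 lower, with a median of 0.02 (7 without late replicate 1 called in all). Fads2 rose by 2.31 ± 0.61 and Hsd17b7 by 2.73 ± 0.19, while Acaca, acetyl-CoA carboxylase, fell by 1.80.

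Secretory pathway genes rose in part. Hspa5 (BiP), the main chaperone of the endoplasmic reticulum, rose from 485 and 413 to 1507 and 1413 CPM (log2 difference 1.70 ± 0.14, adjusted p = 8.3e-05), Hsp90b1 by 1.81 ± 0.13 and Xbp1, a transcription factor of the unfolded protein response, from 235 and 348 to 791 and 815 CPM (log2 difference 1.46 ± 0.19, adjusted p = 0.00089). Ern1, which encodes the sensor IRE1α that splices Xbp1 mRNA, rose from 2.10 and 1.89 to 21.1 and 25.7 CPM (log2 difference 3.55 ± 0.47, adjusted p = 0.0009). Of 20 tested genes, 10 were called higher and 1 (Sec61b) lower, with a median of 0.50 (6 without late replicate 1 and 7 without late replicate 2 called in all). Genes of the SOCS and TGF-beta pathways were called higher in 8 of 19 and lower in 1 (Socs3), with a median of 0.40 (5 without late replicate 1 and 3 without late replicate 2 called in all). Tgfb1 rose by 1.29 ± 0.24 and Tgfbr2 by 0.87 ± 0.15.

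Proliferation genes showed no common direction. Mki67 stood at 1335 and 1455 CPM early and 1507 and 1615 CPM late (log2 difference 0.16 ± 0.12, adjusted p = 0.31). Of 32 tested mitosis genes, 8 were called higher and 4 lower (2 without late replicate 1, 3 without late replicate 2 and 19 without early replicate 2 called in all), and Kif11, a spindle motor, rose by 1.42 ± 0.17. Of 33 DNA replication genes, 1 (Gins1) was called higher and 7 lower (3 without late replicate 1, 2 without late replicate 2, 17 without early replicate 1 and 13 without early replicate 2 called in all), among them Mcm5, of the replicative helicase, which fell by 2.20, and Fen1 by 1.81. Of 26 p53 target genes, 7 were called higher and 3 lower (6 without late replicate 1, 5 without late replicate 2, 16 without early replicate 1 and 17 without early replicate 2 called in all). Pmaip1 (NOXA) rose by 1.93 ± 0.22, while Cdkn1a (p21) did not pass the test (0.37 ± 0.15, adjusted p = 0.088).

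T cell receptor signalling genes were called in both directions, 13 of 28 higher and 6 lower, with a median of 0.45. Cd3e and Cd3g rose by 0.80 ± 0.15 and 0.75 ± 0.15 and Malt1, which links the receptor to NF-kB, by 1.90 ± 0.22. Cd5 and Cd6, inhibitory scavenger receptors of T cells, fell by 1.51 and 1.90, and Trat1 fell by 3.87. Among 25 immediate early genes, 8 were called higher and 4 lower (19 without early replicate 1 called in all). Egr2 and Egr3, factors induced by the T cell receptor, rose by 2.01 ± 0.31 and 2.85 ± 0.55, and Ier3 by 3.43 ± 0.16, while Myc fell by 1.33. Among 23 genes of the common gamma chain and of IL-2 and IL-4 signalling, 5 were called higher and 7 lower. Il2rb rose by 0.97 ± 0.14 and Pim1 by 1.05 ± 0.23, and Jak3 fell by 1.19.

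Other surface and secreted protein families split. Of 26 tested TNF superfamily genes, 5 were called higher and 6 lower (4 without late replicate 1, 5 without late replicate 2 and 18 without early replicate 2 called in all); Tnfsf11 (RANK ligand) rose by 2.50 ± 0.26 and Cd70 fell by 3.61. Of 23 integrin and adhesion genes, 6 were called higher and 5 lower (18 without early replicate 2 called in all); Itga4 rose by 2.17 ± 0.15 and Itgb7, its partner in gut homing, fell by 1.80. Of 17 S100 and annexin genes, 6 were called higher and 7 lower, S100a4 rising by 2.96 ± 0.19 and S100a13 falling by 2.68. Of 20 cathepsin and lysosome genes, 7 were called higher and 3 lower (6 without late replicate 1 called in all), with Ctsd up by 1.93 ± 0.16 and Ctsb by 1.81 ± 0.14. Of 10 MHC class II pathway genes, 2 were called higher (H2-DMa and Cd86) and 5 lower (2 without late replicate 1 and 2 without late replicate 2 called in all), among them Cd74, the invariant chain, which fell by 1.06 (adjusted p = 0.0055).

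The plot of gene lists sets these groups side by side. Among lists with 8 or more tested genes, the highest medians belong to chemokine ligands (4.46), chemokine receptors (1.33), Th2 cytokines and receptors (1.27) and inhibitory receptors (1.23), and the lowest to ribosomal protein genes (-2.52), type I interferon response genes (-1.81) and glycolysis genes (-1.08).

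**Figure D5:**
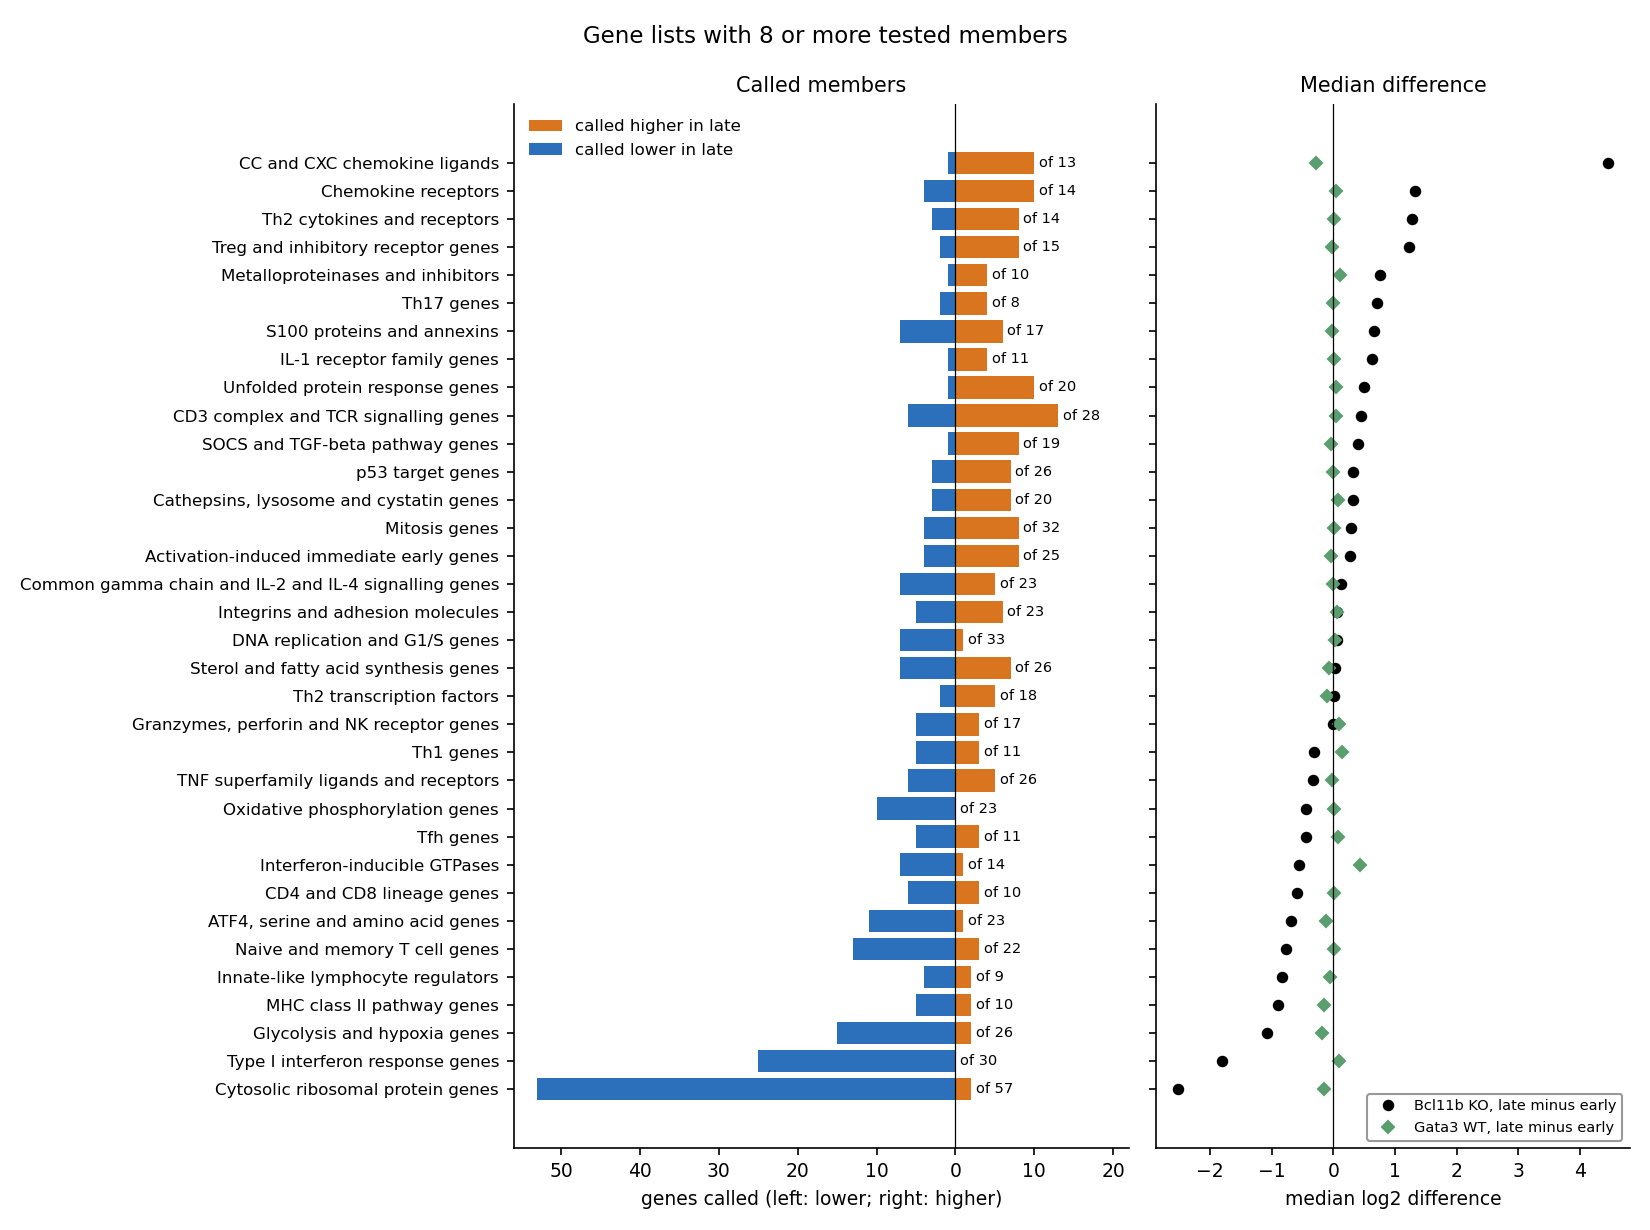
Left, number of tested members of each gene list with 8 or more tested genes called higher (orange, to the right) or lower (blue, to the left) in late Bcl11b KO cultures, with the number tested; right, median log2 difference, late minus early, in Bcl11b KO (black circles) and Gata3 WT (green diamonds) cultures. The Bcl11b KO medians of these lists run from -2.52 to 4.46, and the Gata3 WT medians lie near 0 for most lists.

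The largest falls outside those groups included Cpa3, a mast cell protease, at 45.7 and 42.3 CPM early and 0.560 and 1.16 CPM late (log2 difference -5.72 ± 0.48, adjusted p = 0.00011), and Ucp3, a mitochondrial uncoupling protein, at 33.9 and 30.1 and 0.350 and 0.841 CPM (log2 difference -5.79 ± 0.56, adjusted p = 0.0002). Pdlim4 and Ms4a6b fell by 5.48 and 5.43. They stood at 21.23% and 15.08% of the lower reference in the late Bcl11b libraries as a whole. Rsph3b fell by 5.55 and stood at 7.38% of the lower reference in the late Bcl11b libraries as a whole, near the limit for lost near-copy reads. Summed markers of several other cell types were higher in the early libraries: B cell markers stood at 27.4 and 36.8 RPKM early and 7.93 and 10.9 RPKM late, mast cell and basophil markers at 12.6 and 12.4 and at 2.58 and 1.60 RPKM, and neutrophil and erythroid markers at 18.4 and 17.4 and at 2.42 and 1.90 RPKM. Of the 14 mast cell and basophil markers 1 (Cpa3) was tested and made up most of the early sum, and 11 were at 0 in each early library, against 7 and 8 in the late ones. No neutrophil or erythroid marker was tested, and most of that early sum was Hba-a1 and Hba-a2, globin genes left out by the near-copy rule. The summed level of NK, gamma delta and innate lymphoid markers was 62.6 and 55.3 RPKM early and 100.1 and 82.7 RPKM late. Of the B cell markers, 3 were tested and 2 were called lower, among them Cd79b, by 2.58. The part of such cells in the falls was not tested.

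Against the WT cultures of the same experiment, the stage change differed for 359 of 10747 genes (3.34%). Taken with its sign, it was higher in the KO cultures for 215 (2.00%) and lower for 144 (1.34%). The WT cultures grew without 4-OHT, so in this test the deletion and the drug cannot be told apart. The early WT libraries, which stood apart with signal over sensory receptor genes, enter this test, and the count moved with single libraries and with the method: it was 40 without late KO replicate 2, 63 without late KO replicate 1, 44 and 64 without late WT replicates 1 and 2, and 703 without early WT replicate 2. DESeq2 called 903. Slc2a3 had the larger stage change in KO cells (4.29 ± 0.37, adjusted p = 0.00095): it stood at 946 and 730.0 CPM in early WT and 242 and 351 CPM in late WT libraries. Il13 had the smaller stage change in KO cells (-3.74 ± 0.35, adjusted p = 0.0017): it stood at 7.67 and 5.95 CPM in early WT and 1601 and 2209.9 CPM in late WT libraries, so it was already present in the early KO cultures at 184 and 119 CPM. Il9 (-7.15 ± 0.92, adjusted p = 0.0051) stood at 0 and 0.425 CPM in early WT and 3.10 and 1.38 CPM in late WT libraries, against 137 and 163 CPM in early KO.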

How the data were processed

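RNA was extracted with RNeasy columns and 10 ng was amplified by the Ovation V2 system before HiSeq sequencing, per the labels' protocols. The genome build mm10 and the tools TopHat2 2.0.13, CASAVA 2.18, MACS 1.4.2, Novoalign and Bowtie appear, with no role stated, in the submitters' processing notes. The sources used here do not say how reads were counted, by strand or over several matches. Deposited tables hold raw read counts and the authors' RPKM per RefSeq transcript (29257 transcripts). Peak lists hold the authors' scores: deposited read counts, fold enrichment (a ratio), p-values on a log scale and FDR in percent, for 1 ChIP library each.

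Per symbol, the transcript with most reads over the 16 RNA libraries was used (22878 symbols). Deposited counts were tested with edgeR 4.0.16 (TMM, robust quasi-likelihood F test, Benjamini-Hochberg, adjusted p under 0.05) on the 4 KO libraries, without a replicate block, and in 8-library fits for differences of stage changes. Scripts were tested on simulated data with 100 genes changed at each fold, far fewer than were called in the real data. In the KO comparison 43% of 2-fold and 85% of 4-fold changes were recovered, and 8.57% of calls were false. For the difference against Gata3 WT these values were 10%, 67% and 9.41%. A gene that did not pass may thus still differ by 2-fold. Alternatives were DESeq2 1.42.0, limma 3.58.1 on log2 RPKM with pseudocounts 1 and 0.1, other scalings, filters, transcripts and libraries, and leaving out each library. A peak counted for a gene where the authors list that gene as nearest, within 1 kb of its start and outside input peaks.

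Genes were named by rule: 17 fixed genes, the 12 largest rises and falls with at least 5 RPKM in the higher group and no overlap, up to 6 genes per list with the smallest p, and 8 per direction for each difference of stage changes. Other genes (for example Foxp3, Isg15, Ldha) are named from the lists after their values were seen. Results for some genes are not reported here. Members and lists were chosen with earlier results of these data known. Gene names come from the files, and promoter sequences from RefSeq (GRCm38.p6).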

Additional observations from a re-analysis of the deposited data

Results flagged for a closer look

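The stage change, late minus early, differed between Bcl11b KO and Gata3 WT cultures for 3344 genes by the test of the difference itself (edgeR, adjusted p under 0.05). Of the genes with the smallest p-values, the log2 change was larger in the KO cultures by 4.51 ± 0.27 for Il13, 5.29 ± 0.30 for Il1rl1, 4.23 ± 0.19 for Ctla4, 4.56 ± 0.22 for Ermn, 4.33 ± 0.23 for Ifitm2, 4.04 ± 0.23 for Bace2, 3.67 ± 0.21 for Gem and 4.29 ± 0.26 for Sytl2. The change was lower in the KO cultures for ribosomal protein genes, with differences of -6.52 ± 0.20 for Rpl12, -5.04 ± 0.18 for Rps25, -3.96 ± 0.16 for Rpl41 and -4.26 ± 0.20 for Rpl5. It was also lower for the interferon-inducible GTPases Tgtp2 (-5.36 ± 0.18) and Tgtp1 (-4.99 ± 0.20) and the histone variant H2afz (-3.99 ± 0.17). Each of these 7 lower genes stood between 5.69% (Tgtp2) and 12.04% (H2afz) of the lower reference in the late Bcl11b libraries as a whole, KO and WT.

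The stage change differed between Bcl11b KO and Bcl11b WT cultures for 359 genes. It was larger in the KO cultures by 2.15 ± 0.28 for Ier3, 10.83 ± 1.34 for C5ar1, 4.29 ± 0.37 for Slc2a3, 2.77 ± 0.30 for Aldoc, 2.82 ± 0.32 for Ndrg2, 2.13 ± 0.24 for Ero1l, 2.64 ± 0.32 for Arrb1 and 2.67 ± 0.37 for Tiparp. C5ar1 stood at 1.28 and 0.212 CPM in early WT and 0 and 0 CPM in late WT libraries, against 4.73 and 4.55 CPM early and 136 and 143 CPM late in the KO. Taken with its sign, the change was lower in the KO cultures for Il13 (-3.74 ± 0.35), Il9 (-7.15 ± 0.92), Areg (-6.81 ± 0.78) and S100a6 (-2.07 ± 0.23). It was also lower for Rbl2 (-2.06 ± 0.23), Slc17a6 (-2.59 ± 0.30), Zmat3 (-2.15 ± 0.27) and Aak1 (-1.84 ± 0.23). For Il9 this was a fall in the KO cultures and not a smaller rise. The calls for C5ar1 and Tiparp ended when 1 WT library was left out, at adjusted p = 0.053 without early WT replicate 1 and 0.052 without late WT replicate 1.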

How the results depend on the processing

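No called difference of a named gene changed sign under any alternative run. The balance of calls in the KO cultures, 1859 higher and 2168 lower, turned to 2187 and 1708 and to 2057 and 1660 with limma at pseudocounts of 1 and 0.1 (medians of all genes 0.14 and 0.18), and to 2819 and 2665 with all 16 libraries. Against Gata3 WT, 1532 larger and 1812 smaller turned to 1688 and 1488 and to 1621 and 1454 with limma, to 1684 and 1630 with all 16 libraries, and to 2670 and 2411 and 2608 and 2393 without early KO replicates 1 and 2. The labels do not say that replicate numbers pair the libraries; the replicate differences of the 2 stages correlated at r = -0.036 in Bcl11b KO, -0.080 in Bcl11b WT and 0.581 in Gata3 WT. The count of 4027 genes in the KO cultures ran from 1496 to 5831 with 1 library left out and stayed within 1.5 times under all other alternatives; with the replicate block it was 4005, of which 3778 were among the 4027. The count of 0 between the Gata3 WT stages became 1 with DESeq2, 1 without a filter on low values and 4 with limma on log2(RPKM + 0.1), and ran from 0 to 0 with 1 library left out. The count of 3344 against Gata3 WT ran from 1976 to 5081 with 1 library left out, and was 3329 with the block. The count of 359 against Bcl11b WT became 903 with DESeq2, 1049 without a filter, 853 with filterByExpr, 5964 (254 higher, 5710 lower) and 5796 (216 higher, 5580 lower) with limma at pseudocounts of 1 and 0.1, 221 with the replicate block and 1535 with all 16 libraries, and ran from 40 to 703 with 1 library left out; limma moved the median of all genes there to -1.04 and -1.33. Rerunning the near-copy rule at 25%, an alternative chosen after seeing the data, gave 3817 genes in the KO cultures.

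Shares of genes with a Bcl11b peak (37.12% higher, 31.00% lower, 32.13% all) became 34.43%, 28.83% and 29.99% at an FDR of at most 1%, 47.82%, 41.37% and 42.64% when only input overlaps of 50% removed a peak, and 44.06%, 36.16% and 37.77% within 5 kb. For GATA3 they became 13.39%, 9.78% and 10.01%, then 24.48%, 19.19% and 19.30%, then 40.94%, 32.06% and 32.49%. Single genes and lists were pooled under alternatives other than leaving out a library. There, 4111 values kept their call or, for list counts, stayed within 1.5 times. In the rest, 36 calls were lost, 8 were gained and 16 list counts moved by over 1.5 times. With 1 library left out, more calls were lost and more list counts moved, and most of the lost calls were lost without a late KO replicate. Such a fit leaves 1 library in a group. Depth limits genes with few reads: 43 tested genes had none in one group.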
